A study of Mus musculus with 19 samples.

Results

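The nuclear-encoded subunits of respiratory complexes II to V were followed through the day in the ribosome-bound mRNA of mouse spinal cord cholinergic neurons. Members were taken by symbol, as every row of the count table that began with Uqc, with Atp5 or with Cox followed by a digit from 4 to 8, together with Sdha, Sdhb, Sdhc and Sdhd, leaving out 13 rows marked as pseudogenes. This gave 51 of 50559 genes, of which 4 belonged to complex II, 11 to complex III, 19 to complex IV and 17 to complex V. The mice were 10-week-old C57BL/6J males of the genotype ChAT-Cre;RiboTag fx/+, labelled wild-type and kept in 12 h of light and 12 h of dark. RiboTag is an allele whose ribosomal protein gains a hemagglutinin tag where Cre is active, here in cells that express choline acetyltransferase, so that precipitating the tag recovers mRNA on the cytoplasmic ribosomes of motor neurons and other cholinergic cells. Each of 18 immunoprecipitates came from the spinal cord of 1 animal, with 3 animals at each of 6 Zeitgeber times (ZT, hours after lights on): ZT0, ZT4, ZT8, ZT12, ZT16 and ZT20. A single library of pooled input, which is RNA of the whole spinal cord before precipitation, served as the reference and has no replicate. In such bulk samples, fewer cells of a type and less RNA per cell cannot be told apart.

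Complex II, succinate dehydrogenase, feeds electrons from the tricarboxylic acid cycle into ubiquinone, and all of its subunits are encoded in the nucleus. Complex III passes the electrons to cytochrome c, complex IV passes them to oxygen, and complex V, the ATP synthase, uses the proton gradient that results to make ATP. Complexes III to V join a few mitochondrially encoded proteins to many nuclear ones: large core or catalytic subunits on the one hand, and small supernumerary, membrane and stalk subunits on the other. Motor neurons keep up long axons and many synapses and depend heavily on this pathway.

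The immunoprecipitates held 6302150 to 22406859 counts each and the input 15239798. All 7 cholinergic markers were above the input, with a summed level of 4251 to 5077 CPM (counts per 1000000 of the scaled library) against 459.7, and all 7 oligodendrocyte markers were below it, at 1531 to 2916 CPM against 21768. The first principal component of the immunoprecipitates held 52.5% of the variance across the more abundant of the genes tested. Its mean score was 25.8 ± 19.2 (SD, n = 3) at ZT8 and −16.5 ± 7.31 at ZT0. Within ZT8, replicate 2 scored 42.8, replicate 3 scored 29.6 and replicate 1 only 4.97, so that the ZT8 animals stood apart from each other, and the counts, complex medians and leading differences that rest on them are given with and without single ZT8 animals.

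Of the 51 members, 50 had a count in at least 1 library and 47 passed the filter on low counts, among 15572 genes tested. The 4 that did not pass were Cox4i2, Cox6c2, Cox7b2 and Cox8c, all low or absent in every library. Relative to transcript length, Cox4i1 had the highest level of all members, at 2156 ± 615 CPM per kb (SD, n = 18), followed by Cox6b1 at 1188 ± 403, Uqcrh at 1185 ± 517, Cox5a at 1135 ± 407, Atp5g3 at 1105 ± 299 and Cox6a1 at 1014 ± 198. The last 5 of these levels lay within the spread between libraries of each other, and the order below Cox4i1 changed with the time point: Atp5b was second at ZT0 (868 ± 54.9 CPM per kb) and Uqcrh at ZT8 (1933 ± 689; SD, n = 3 each). The complex II subunits were lower, from 78.8 ± 7.99 CPM per kb for Sdhc to 160.2 ± 10.8 for Sdha. Summed over members, complex IV held 4609 ± 628 CPM at ZT0 and 7700 ± 1641 at ZT8, whereas complex II held 923 ± 17.5 and 878 ± 41.5 (SD, n = 3 at each time). Complex V lay between 8021 ± 334 at ZT0 and 8632 ± 514 at ZT8, and complex III went from 2201 ± 203 to 3102 ± 509. The 51 genes together took 1.58% ± 0.0956 of all counts at ZT0 and 1.99% ± 0.232 at ZT8.

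At ZT8, in the light phase when mice rest, many of the small subunits of complexes III, IV and V were higher than at ZT0, and several large core and catalytic subunits were lower. Of 47 members tested, 21 rose and 7 fell from ZT0 to ZT8 by edgeR's quasi-likelihood test at an adjusted p of 0.05. Over all genes tested, 8.95% were called higher and 9.02% lower, and 18.0% in either direction. The members that rose were 5 in complex III, 8 in complex IV and 8 in complex V, and none in complex II. Those that fell were Sdhb of complex II, Uqcrc1 and Uqcrc2 of complex III, and Atp5a1, Atp5b, Atp5c1 and Atp5g1 of complex V, and none in complex IV. The median log2 difference was 0.05 in complex II, 0.58 in complex III, 0.56 in complex IV and 0.37 in complex V, against −0.003 over all genes tested. The ranges of the 3 animals were higher at ZT8 without overlap in 24 members, against 16.9% of all genes, and lower without overlap in 7, against 17.7% of all genes. The number of calls rested on single animals: there were 2 when ZT8 replicate 2 was dropped and 12 when ZT8 replicate 3 was, and dropping a ZT0 animal gave 4 for replicate 1 and 13 for replicate 3. It was 0 without the 6 libraries of replicate number 2 and also without those of number 3. Calls over all genes tested fell in step. They numbered 2798 with all libraries, 319 and 1207 without ZT8 replicates 2 and 3 in turn, and 617 and 1105 without ZT0 replicates 1 and 3 in turn. They were 0 without either replicate number, so that the loss of calls was not particular to the members. In the fits that left out 1 library, the medians of complexes III, IV and V stayed between 0.265 and 0.72, so that their direction did not rest on any single library. Each of the 28 called members kept its direction without any 1 ZT8 animal. For all but Sdhb this could not have come out otherwise, since their ZT0 and ZT8 ranges did not overlap. Without replicate 1, 27 of them were still called and the differences were mostly larger: 1.52 for Uqcrh, 1.27 for Cox5a, 1.33 for Atp5l, −1.29 for Atp5b and −0.78 for Uqcrc1. Without replicate 2 these were 1.01, 0.81, 0.86, −0.75 and −0.35, and only Atp5b and Atp5c1 were still called (edgeR adjusted p = 0.0475 and 0.0426). Summed marker levels of some other cell types moved with this comparison: those of 4 inhibitory neuron genes went from 332.5 ± 8.43 CPM at ZT0 to 270.2 ± 28.5 at ZT8 and those of 6 astrocyte genes from 176.2 ± 10.2 to 150 ± 16.9 (SD, n = 3), both without overlap and both below the input, at 823.5 and 2944 CPM. Their part in the result was not tested.

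**Figure D1:**
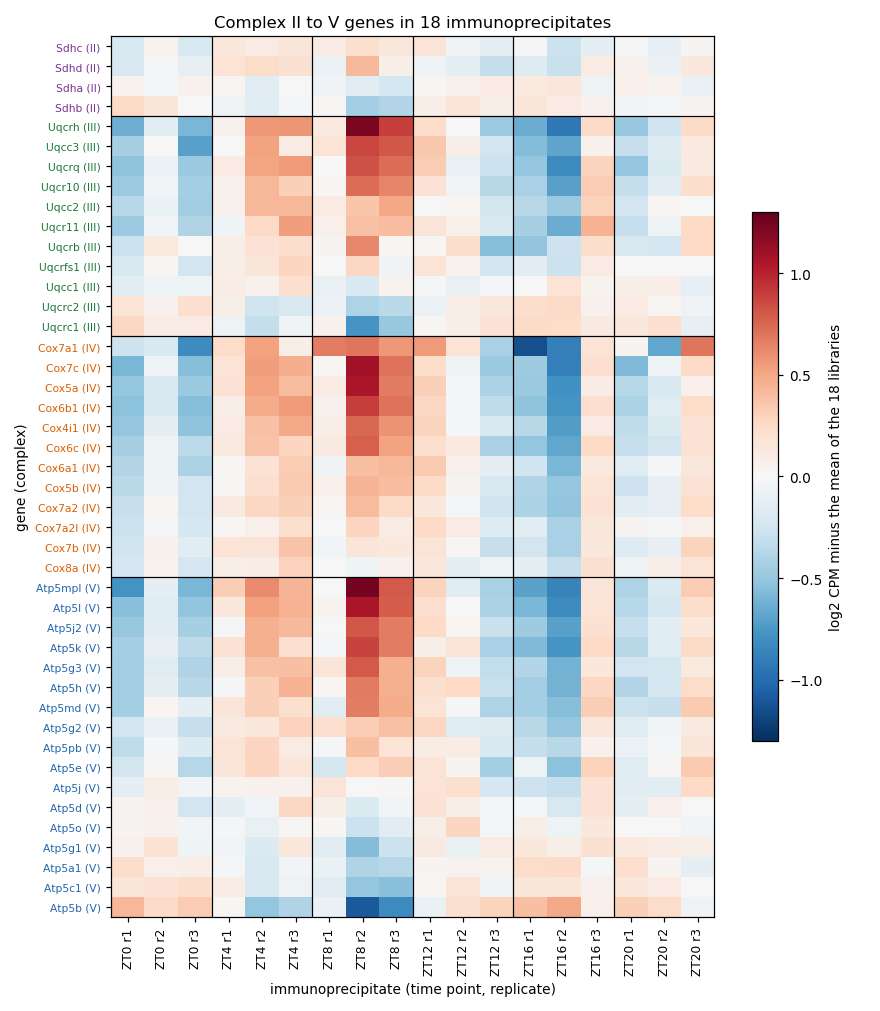
Log2 CPM of 44 members with a mean of at least 3 CPM (rows, grouped by complex) in 18 immunoprecipitates (columns, grouped by time point), each row shown relative to its own mean. ZT8 replicates 2 and 3 are the highest libraries for Uqcrh, Cox5a and Atp5l and the lowest for Atp5b, with ZT8 replicate 1 closer to the mean, whereas Uqcr11, Cox7b and Cox8a are highest in ZT4 replicate 3.

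**Figure D2:**
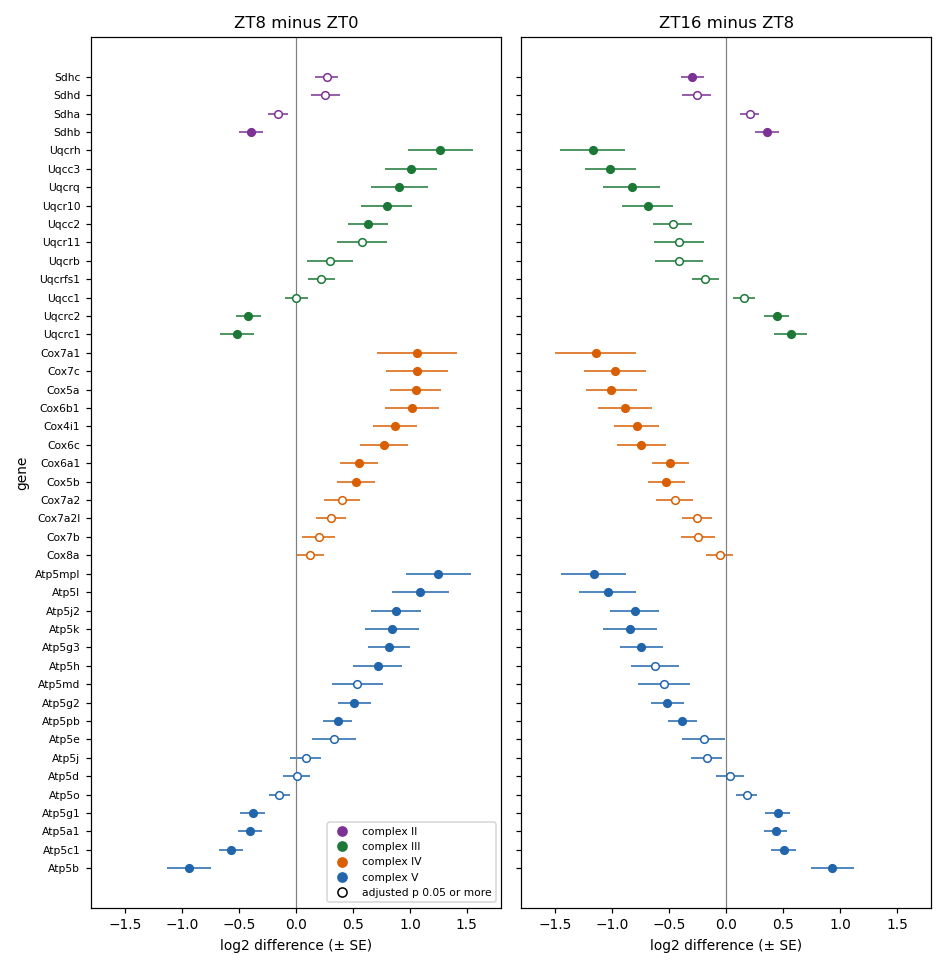
Log2 difference with its SE for 44 members in ZT8 minus ZT0 (left) and ZT16 minus ZT8 (right), coloured by complex, with filled points for an adjusted p under 0.05. In complexes III and V the called members lie on both sides of 0 in each panel, and in complex II on both sides in the right panel alone, where Sdhb and Sdhc are called; in complex IV they lie on one side; the panels share the ZT8 animals.

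Within complex II, Sdhb alone passed the test from ZT0 to ZT8, and from ZT8 to ZT16 Sdhb passed it, with Sdhc at the threshold in the opposite direction. Sdhb, the iron-sulfur subunit of the head, was at 210.5, 197.7 and 175.7 CPM at ZT0, at 178.2, 130.1 and 135.4 at ZT8, and at 196.5, 189.8 and 183.4 at ZT16. Every ZT16 animal was above every ZT8 animal, while the ZT0 and ZT8 ranges overlapped through ZT8 replicate 1. Sdhb fell by 0.40 ± 0.11 (SE) on the log2 scale to ZT8 (edgeR adjusted p = 0.0166) and was 0.36 ± 0.11 higher at ZT16 than at ZT8 (edgeR adjusted p = 0.0267). Sdhc, a heme-binding anchor in the inner membrane, was at 136.2, 161.6 and 135.2 CPM at ZT0, at 167.9, 181.1 and 173.0 at ZT8, and at 153.5, 128.5 and 143.1 at ZT16. Here every ZT8 animal was above every ZT0 and every ZT16 animal. Its log2 difference was 0.27 ± 0.10 from ZT0 to ZT8 (edgeR adjusted p = 0.067) and −0.30 ± 0.10 from ZT8 to ZT16 (edgeR adjusted p = 0.0483). The Sdhc call held in 4 of 21 fits that left out libraries, where that of Sdhb held in 15, and was lost with every other scaling and filter tried (edgeR adjusted p from 0.05 to 0.128). Sdhd, the other anchor, differed by 0.26 ± 0.13 from ZT0 to ZT8, and Sdha, the flavoprotein that oxidises succinate, by −0.16 ± 0.09, and neither passed the test. Within a library, Sdhc reads stood to Sdhb reads as 0.745 ± 0.0881 at ZT0, 1.02 ± 0.0352 at ZT4, 1.2 ± 0.233 at ZT8 and 0.746 ± 0.06 at ZT16 (SD, n = 3).

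In complex III 2 of the 3 core subunits matched by symbol fell to ZT8 and 3 of 5 small subunits rose. Cyc1, the gene of cytochrome c1 in this complex, did not match the symbol rule and was counted with the carriers. Uqcrc1 (chr9:108936648-108949641 in GRCm38.p6), the larger of a pair of core proteins that face the matrix, was at 514.6, 456.5 and 458.7 CPM at ZT0, at 444.5, 250.9 and 303.1 at ZT8, and at 509.3, 504.1 and 463.3 at ZT16. All ZT8 values were below all ZT0 and all ZT16 values, but ZT8 replicate 1 was close to both. Uqcrc1 fell by 0.52 ± 0.15 on the log2 scale to ZT8 (edgeR adjusted p = 0.0208), and Uqcrc2, its partner, by 0.42 ± 0.11 (edgeR adjusted p = 0.0145). Uqcrh (chr4:116066965-116075070 in GRCm38.p6), the acidic hinge protein at the cytochrome c binding side, was at 333.9, 466.6 and 344.5 CPM at ZT0, at 567.3, 1214 and 969.3 at ZT8, and at 332.8, 272.4 and 616.5 at ZT16. The ZT8 animals were all above the ZT0 animals, but ZT16 replicate 3 was above ZT8 replicate 1. Uqcrh rose by 1.27 ± 0.29 to ZT8 (edgeR adjusted p = 0.00826), the largest difference among the members that passed the test, and fell by 1.17 ± 0.29 to ZT16 (edgeR adjusted p = 0.0111). Uqcrq, a small subunit bound to cytochrome b, rose by 0.91 ± 0.25 and Uqcr10 by 0.80 ± 0.23, whereas the differences of Uqcr11 (0.58 ± 0.22), Uqcrb (0.30 ± 0.21) and the Rieske iron-sulfur protein Uqcrfs1 (0.22 ± 0.12) did not pass the test.

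The assembly factors of complex III, which help cytochrome b to be made and inserted, did not all move alike. Uqcc3 was at 24.0, 32.3 and 19.9 CPM at ZT0, at 36.7, 59.1 and 56.6 at ZT8, and at 21.8, 20.1 and 33.6 at ZT16. All 3 ZT8 animals were above all ZT0 and all ZT16 animals. It rose by 1.01 ± 0.23 on the log2 scale to ZT8 (edgeR adjusted p = 0.00797) and fell by 1.02 ± 0.23 to ZT16 (edgeR adjusted p = 0.00885). Uqcc2 rose by 0.63 ± 0.17 to ZT8, and Uqcc1 differed by 0.003 ± 0.098.

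In complex IV, whose catalytic subunits are mitochondrially encoded, every nuclear member that passed the test was higher at ZT8. Cox4i1 (chr8:120668225-120674209), the largest nuclear subunit and the site of regulation by ATP, was at 1107, 1440 and 1094 CPM at ZT0, at 1662, 2626 and 2358 at ZT8, and at 1222, 946.5 and 1692 at ZT16. The ZT8 animals were above the ZT0 animals without overlap, and ZT16 replicate 3 lay just above ZT8 replicate 1. Cox4i1 rose by 0.87 ± 0.20 on the log2 scale to ZT8 (edgeR adjusted p = 0.00836) and fell by 0.78 ± 0.20 to ZT16 (edgeR adjusted p = 0.0127). Cox5a (chr9:57517328-57532427), a matrix-side subunit, was at 490.6, 604.9 and 496.7 CPM at ZT0, at 747.9, 1446 and 1106 at ZT8, and at 496.5, 401.6 and 743.6 at ZT16. All ZT8 values were above all ZT0 and ZT16 values, with ZT16 replicate 3 just under ZT8 replicate 1. Cox5a rose by 1.05 ± 0.22 (edgeR adjusted p = 0.00708) and fell by 1.01 ± 0.22 (edgeR adjusted p = 0.00869).

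The other complex IV subunits that rose to ZT8 were Cox7c (1.06 ± 0.27 log2), Cox7a1 (1.06 ± 0.35), Cox6b1 (1.02 ± 0.24), Cox6c (0.77 ± 0.21), Cox6a1 (0.56 ± 0.17) and Cox5b (0.53 ± 0.16). Cox6b1, which sits on the side where cytochrome c docks, was at 378.4, 473.4 and 374.5 CPM at ZT0 and at 568.3, 1021 and 893 at ZT8, again with no overlap. Cox7a2 (0.41 ± 0.16), the supercomplex factor Cox7a2l (0.30 ± 0.13), Cox7b (0.20 ± 0.15) and Cox8a (0.13 ± 0.12) did not pass the test. Cox8a, with a transcript of 550 bases, is as small as Cox7c and Cox6a1, at 540 and 571 bases. Cox5b has a processed pseudogene in the table, Cox5b-ps, to which 2745 counts were assigned over the immunoprecipitates, and reads that fit both copies were divided by a model.

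In complex V, 3 of 5 subunits of the F1 head, which carries the catalytic sites, fell from ZT0 to ZT8, and 4 of 5 small membrane subunits rose. The 3 that fell had transcripts of 1166 to 2572.5 bases, and the small membrane subunits had 321.5 to 747.5. With the trend along transcript length removed, the median of complex V went from 0.37 to −0.07. What part length had in this division was not tested. Atp5b (chr10:128083307-128090388 in GRCm38.p6), the catalytic beta subunit, was at 1772, 1562 and 1655 CPM at ZT0, at 1238, 618.9 and 740 at ZT8, and at 1723, 1857 and 1377 at ZT16. All ZT8 values were below all values of both other times, and ZT8 replicate 1 was the nearest to them. Atp5b fell by 0.94 ± 0.19 on the log2 scale to ZT8 (edgeR adjusted p = 0.0062) and rose by 0.93 ± 0.19 to ZT16 (edgeR adjusted p = 0.00738). Atp5c1, the gamma subunit that forms the rotating shaft, was at 313.2, 319.2 and 329.9 CPM at ZT0, at 256.4, 198.4 and 192.6 at ZT8, and at 314.5, 313.2 and 291.6 at ZT16. From ZT0 to ZT8 it had the lowest p of all members, with a fall of 0.57 ± 0.11 to ZT8 (edgeR adjusted p = 0.00523) followed by a rise of 0.51 ± 0.11 to ZT16 (edgeR adjusted p = 0.00817), and no ZT8 animal reached the other times. Atp5a1, the alpha subunit, was at 1453, 1304 and 1320 CPM at ZT0, at 1169, 944.4 and 962.8 at ZT8, and at 1465, 1470 and 1218 at ZT16. Its fall to ZT8 was 0.41 ± 0.10 and its rise to ZT16 0.43 ± 0.10 (edgeR adjusted p = 0.0121 and 0.0098). The remaining subunits of the head did not pass the test: Atp5d (delta) differed by 0.006 ± 0.120 from ZT0 to ZT8 and Atp5e (epsilon) by 0.33 ± 0.19.

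Atp5l (chr9:44913248-44920742), subunit g, which helps to hold pairs of ATP synthases together in the membrane, was at 315.9, 414.7 and 323.1 CPM at ZT0, at 477.8, 966.7 and 797.5 at ZT8, and at 306.4, 260.4 and 523.6 at ZT16. The ZT8 animals were above the ZT0 animals without overlap, whereas ZT16 replicate 3 was above ZT8 replicate 1. Atp5l rose by 1.09 ± 0.25 on the log2 scale to ZT8 (edgeR adjusted p = 0.0086) and fell by 1.04 ± 0.25 to ZT16 (edgeR adjusted p = 0.0104). The small membrane subunits Atp5mpl (1.25 ± 0.28), Atp5j2 (subunit f, 0.88 ± 0.22) and Atp5k (subunit e, 0.84 ± 0.24) also rose to ZT8, and Atp5md, known as DAPIT, differed by 0.54 ± 0.23 without passing the test. Of the peripheral stalk, which keeps the head from turning with the shaft, Atp5h (0.72 ± 0.21) and Atp5pb (0.37 ± 0.13) rose, while Atp5j (0.09 ± 0.14) and Atp5o (−0.15 ± 0.09) did not pass the test. Within a library, the ratio of Atp5l to Atp5b reads had a ZT0 mean of 0.213 ± 0.0467 (SD, n = 3), a ZT4 mean of 0.576 ± 0.175 and a ZT8 mean of 1.01 ± 0.590. The mean was 0.317 ± 0.109 for ZT12, 0.233 ± 0.129 for ZT16 and 0.299 ± 0.110 for ZT20. At ZT8 the ratio ran from 0.386 in replicate 1 to 1.56 in replicate 2, and at ZT0 from 0.178 to 0.266.

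Subunit c, the protein of the rotating ring, is encoded by Atp5g1, Atp5g2 and Atp5g3, which give the same mature protein behind different import signals, and these genes did not move together. Atp5g3 was at 567.4, 689.8 and 586.4 CPM at ZT0, at 853.9, 1330 and 1062 at ZT8, and at 591.9, 502.5 and 844.6 at ZT16. Atp5g2 was at 176.2, 195.7 and 168.4 CPM at ZT0, at 240.7, 259.3 and 270.3 at ZT8, and at 162.3, 146.3 and 230.4 at ZT16. For both of these genes no ZT8 animal overlapped with ZT0 or ZT16. Atp5g1 was at 361.6, 396.8 and 334 CPM at ZT0, at 316.6, 235.8 and 285.8 at ZT8, and at 381.8, 367.3 and 398.1 at ZT16, so that its ZT8 animals were the lowest without overlap. From ZT0 to ZT8, Atp5g3 rose by 0.82 ± 0.19 and Atp5g2 by 0.51 ± 0.14 on the log2 scale, and Atp5g1 fell by 0.38 ± 0.11 (edgeR adjusted p = 0.00838, 0.0197 and 0.021). From ZT8 to ZT16, Atp5g3 fell by 0.74 ± 0.19 and Atp5g2 by 0.52 ± 0.14, and Atp5g1 rose by 0.45 ± 0.11 (edgeR adjusted p = 0.0122, 0.0202 and 0.0105). With the trend along transcript length removed, the differences from ZT0 to ZT8 of Atp5g2 (0.11, edgeR adjusted p = 0.426) and Atp5g1 (−0.29, edgeR adjusted p = 0.0571) no longer passed the test, and that of Atp5g3 (0.48, edgeR adjusted p = 0.00507) did. Atp5g3 reads stood to Atp5g1 reads as 1.69 ± 0.104 at ZT0, 4.02 ± 1.49 at ZT8 and 1.68 ± 0.392 at ZT16.

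**Figure D3:**
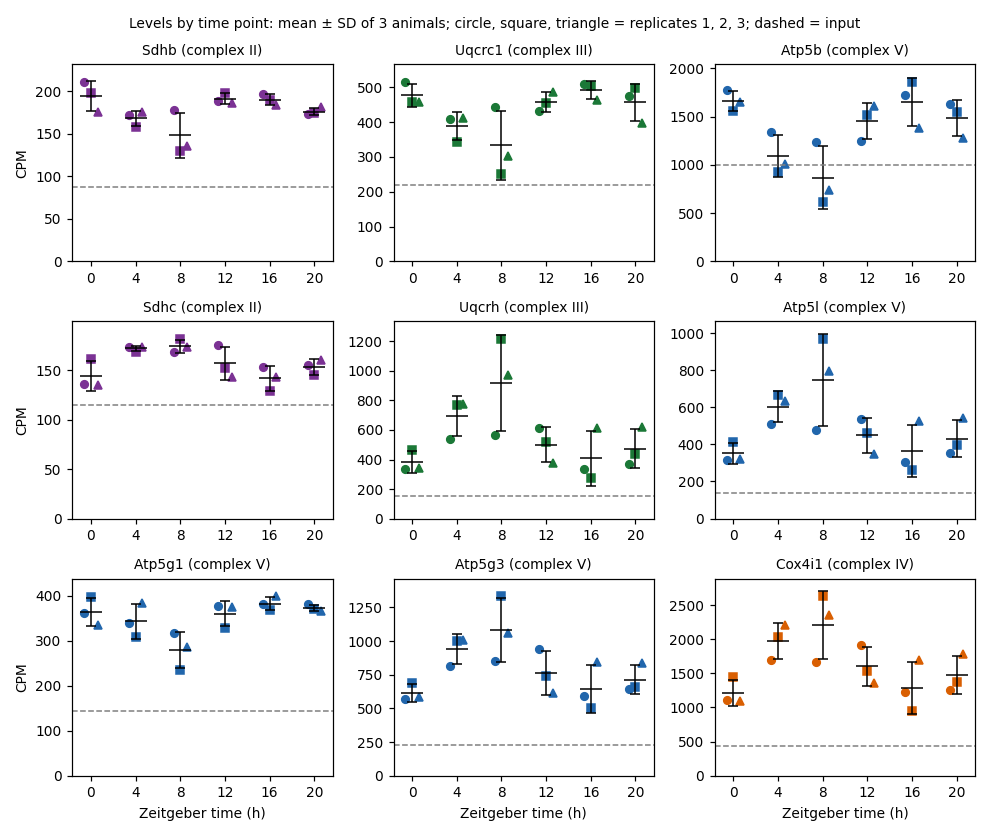
CPM of 9 members in each immunoprecipitate against Zeitgeber time in hours, with 3 symbols for the replicates and bars for the mean ± SD; the dashed line is the input library. Sdhb, Uqcrc1, Atp5b and Atp5g1 have their lowest mean at ZT8, and Sdhc, Uqcrh, Atp5l, Atp5g3 and Cox4i1 have their highest mean there.

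The promoters of the subunit c genes are shown because these genes encode one mature protein and their differences to ZT8 had opposite signs. Each window runs from 250 bases before to 50 bases after a RefSeq transcript start in GRCm38.p6, read 5′ to 3′ on the strand of the gene, and capitals mark a match on either strand to CACGTG, the E-box bound by clock and other bHLH factors, or to GCATGCG, the centre of the site bound by NRF1, a regulator of respiratory chain genes, whose matches on the opposite strands overlap in the Atp5g2 window. The Atp5g1 window is at chr11:96075582-96075881 (minus strand), the Atp5g2 window at chr15:102670998-102671297 (minus) and the Atp5g3 window at chr2:73911277-73911576 (minus). The start used for Atp5g3 lies 1138 bases inside the 5′ end of the gene as annotated by RefSeq, that for Atp5g1 63 bases inside, and that for Atp5g2 at the 5′ end.
Atp5g1: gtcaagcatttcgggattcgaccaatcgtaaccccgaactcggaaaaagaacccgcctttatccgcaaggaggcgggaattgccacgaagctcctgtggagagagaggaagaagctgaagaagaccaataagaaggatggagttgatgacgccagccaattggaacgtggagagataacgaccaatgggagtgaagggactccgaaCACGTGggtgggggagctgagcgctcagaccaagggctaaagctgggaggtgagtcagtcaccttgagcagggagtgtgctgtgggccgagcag
Atp5g2: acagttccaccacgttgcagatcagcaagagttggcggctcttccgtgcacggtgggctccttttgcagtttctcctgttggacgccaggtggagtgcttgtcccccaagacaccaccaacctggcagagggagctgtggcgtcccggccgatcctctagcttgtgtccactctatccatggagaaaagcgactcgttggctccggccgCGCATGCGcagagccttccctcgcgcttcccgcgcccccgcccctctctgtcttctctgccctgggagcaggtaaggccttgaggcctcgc
Atp5g3: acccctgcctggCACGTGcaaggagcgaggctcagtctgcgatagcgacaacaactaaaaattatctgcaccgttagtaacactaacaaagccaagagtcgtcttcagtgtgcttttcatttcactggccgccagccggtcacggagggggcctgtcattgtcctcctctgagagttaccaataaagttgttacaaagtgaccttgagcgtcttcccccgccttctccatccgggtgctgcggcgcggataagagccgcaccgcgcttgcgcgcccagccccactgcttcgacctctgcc
An E-box stood in the windows of both Atp5g1, which fell, and Atp5g3, which rose, there at an internal start, and the NRF1 centre in that of Atp5g2. Windows were found for 39 of the 51 members, with 42 windows in all. The E-box was in 11.9% of these member windows, against 7.15% of all 32851 promoter windows and 9.46% of those of tested genes. The NRF1 centre was in 8 of the 42 member windows, against 3.58% of all windows and 5.80% of those of tested genes. By direction, the NRF1 centre was in 4 of 17 windows of members that rose to ZT8, namely Atp5k, Atp5l, Cox6a1 and Atp5g2, and in 2 of 6 windows of members that fell, those of Sdhb and Uqcrc1. The E-box was in 4 of the 17, those of Atp5g3, Atp5pb, Atp5l and Uqcc3, and in 1 of the 6. These matches describe letters within the windows and were not tested for a difference between the directions.

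Transcript length moved with the direction of change. The 21 members that rose to ZT8 had transcripts with a median of 571 bases, from 321.5 to 1604, and all but Atp5pb were under 1000 bases. The 7 members that fell had a median of 1896 bases, from 1142 to 2676. Of 32 tested members under 1000 bases, 20 rose and 0 fell, where 20.7% of all genes of that length class rose and 3.34% fell. Of 15 members of 1000 bases or more, 1 rose and 7 fell, against 7.71% and 10.1% of all genes in that class. The median log2 difference over all genes tested was 0.36 under 1000 bases and −0.04 above, and for the members it was 0.74 and −0.16. With the trend of the counts along transcript length removed from each library, 14 members were higher and 7 lower, and the medians became 0.13 in complex III, 0.16 in complex IV and −0.07 in complex V. What part length had in the differences was not tested. A length was known for 96.0% of the genes tested and for all members.

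**Figure D4:**
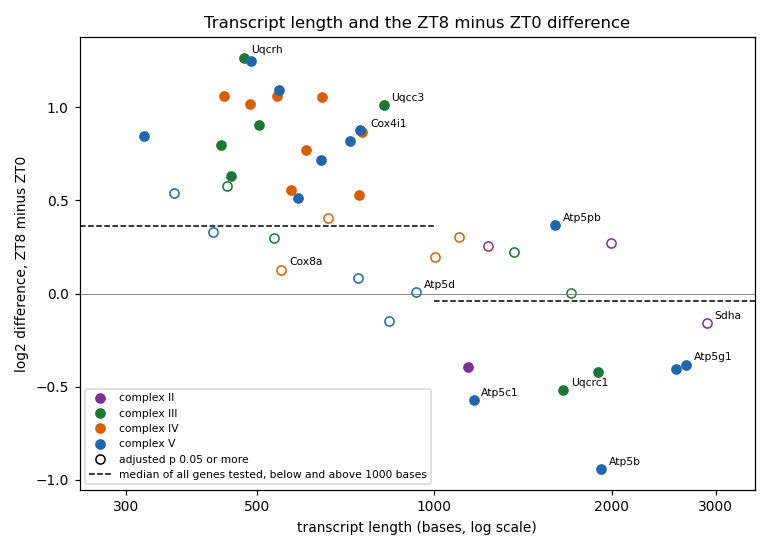
Log2 difference from ZT0 to ZT8 against transcript length in bases (log scale) for 44 members, coloured by complex, with filled points for an adjusted p under 0.05 and dashed lines for the median of all genes tested in each length class. Members under 1000 bases lie mostly above the dashed line at 0.36, and the members that fell are all longer than 1000 bases.

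From ZT8 to ZT16, in the dark phase when mice are active, the same division was seen with the signs turned round. Of 47 members, 20 fell and 7 rose, against 7.80% and 9.11% of all genes tested. The median log2 difference was −0.03 in complex II, −0.42 in complex III, −0.74 in complex IV and −0.39 in complex V, against 0.005 over all genes. In every comparison the complex IV median takes in the rare isoforms Cox6a2, Cox6b2 and Cox8b, at means of 0.381, 0.434 and 0.473 CPM. The −0.74 here is the value of Cox6b2 itself, which has an SE of 1.23. Since this comparison uses the same 3 ZT8 animals as the first, opposite signs in it are not independent of the first comparison. Of the members, 26 were called in both comparisons, Uqcc2 and Atp5h in the first alone and Sdhc in the second alone, a difference that was not itself tested. The ranges of the animals at ZT16 were below those at ZT8 without overlap in 6 members, against 13.5% of all genes, and above them in 7, against 13.7%. ZT16 replicate 3 was above ZT8 replicate 1 for small subunits such as Uqcrh, Cox6b1 and Atp5l, and its oligodendrocyte markers summed to 2916 CPM, the highest of the immunoprecipitates, a value whose part in the result was not tested. Without that library 35 members were called, but without ZT16 replicate 2 or ZT8 replicate 2 none was, and the count was 5 without ZT16 replicate 1 and 9 without ZT8 replicate 3. With the length trend removed the calls were 14 lower and 10 higher, and with these 2 time points fitted alone there were 0.

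From ZT8 to ZT20 no member and no gene at all passed edgeR's adjusted test (0.00% of all genes). At an unadjusted p under 0.05 there were 25 members and 3474 genes (22.3%), and DESeq2 called 9 members, against 7.15% of all genes. The lowest adjusted p among members was 0.063, for Atp5c1, whose log2 difference was 0.47 ± 0.11. The median log2 difference was 0.01 in complex II, −0.31 in complex III, −0.52 in complex IV and −0.17 in complex V. Without ZT8 replicate 1, 22 members were called, against 15.1% of all genes, and without ZT16 replicate 3, 9, against 3.99%. In the other 12 of the 15 pairs of time points no member passed, although 31 members from ZT0 to ZT4 and 30 from ZT4 to ZT16 had an unadjusted p under 0.05, as did 3110 of the 15572 genes and 3158 of them (20.3%). The median over members was 0.40 from ZT0 to ZT4 and −0.40 from ZT4 to ZT16, so that ZT4 lay near ZT8.

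Across all 6 time points, a 24-h cosine curve was called by edgeR for 9 members, against 6.24% of all genes, and any difference among the time points for 10, against 6.74%. The 9 were Uqcrq, Uqcrh and Uqcc3 of complex III, Cox4i1, Cox5a and Cox6b1 of complex IV, and Atp5b, Atp5g3 and Atp5l of complex V. Atp5b peaked at 18.9 h after lights on with an amplitude of 0.41 on the log2 scale (edgeR adjusted p = 0.0426). The other 8 peaked between 7.02 and 7.56 h after lights on, with amplitudes from 0.34 for Atp5g3 to 0.52 for Uqcrh and edgeR adjusted p-values from 0.0385 to 0.0491. The cosine calls rested on single libraries: there were 0 without any one of 10 libraries, namely replicate 2 or 3 of ZT0, ZT4 or ZT8, replicate 1 or 2 of ZT16, and replicate 1 of ZT12 or ZT20. There were 5 without ZT0 replicate 1, 4 without ZT20 replicate 2, 15 without ZT12 replicate 3, 21 without ZT16 replicate 3 and 29 without ZT20 replicate 3, and 0 with an oligodendrocyte marker score in the fit. Over all genes the cosine calls fell from 972 to 146 without ZT0 replicate 3, and to between 2 and 5 without each other library of the 10. In the fits just listed they were 651, 804, 1676, 1592 and 2746 in that order, and 4 with the oligodendrocyte score. The count of any difference among the time points was likewise 0 without ZT0 replicate 1 or 3, ZT4 replicate 2, ZT8 replicate 2 or 3, or ZT16 replicate 1. It was 3 without ZT4 replicate 3, ZT12 replicate 2 or ZT20 replicate 2, 5 without ZT16 replicate 2, 25 without ZT8 replicate 1 and 27 without ZT16 replicate 3. Over all genes this test called 1049 with all libraries and 5 to 176 in the single-library fits that called 0 members. It called 409 to 555 where 3 or 5 members were called, and 2473 and 2090 without ZT8 replicate 1 and ZT16 replicate 3 in turn. JTK_Cycle, the rank test used in the study, called 0 members and 6 genes (0.0385% of all genes) after adjustment across genes. With equal cosines merged and the adjustment kept within the gene, the test called 20 members, against 15.8% of all genes, each with a best period of 20 h. Without ZT16 replicate 3 the test adjusted across genes called 8 members and 740 of all genes. The mean was highest at ZT8 for 26 of 47 members and lowest at ZT0 for 24, at ZT16 for 12 and at ZT8 for 9. These counts were not made over all genes, so they do not set the members apart.

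Most members were more abundant in the immunoprecipitates than in whole spinal cord. The input is a single library, so that the comparison has no test, and a gene was counted as enriched if its mean was at least 2 times the input and all 18 libraries were above it. By this rule 28 of 49 members with at least 10 counts were enriched, against 11.2% of all genes, and 1 was depleted, against 21.5%. By the mean alone, 44 members were above the input, against 41.5% of all genes. The median log2 ratio was 0.55 in complex II, 1.14 in complex III, 1.16 in complex IV and 1.34 in complex V, against −0.30 over all genes. Enriched members numbered 1 of 4, 6 of 11, 8 of 19 and 13 of 17. With library totals in place of the scaled sizes, 22 members were enriched and 2 depleted.

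The highest ratio in complex IV and of all members was that of Cox5a, with a mean of 732 ± 263 CPM (SD, n = 18) and an input of 172.5 CPM (95% exact Poisson interval 166.6 to 178.6, counting error only), or 4.24-fold. Atp5h led complex V at 606 ± 159 against 148.8 CPM (4.08-fold), Uqcrq complex III at 358 ± 119 against 91.5 CPM (3.91-fold), and Sdhb complex II at 177.9 ± 20.5 against 87.7 CPM (2.03-fold). The lowest ratios were 1.2-fold for Sdha in complex II, 1.2-fold for Uqcc1 in complex III and 1.22-fold for Atp5e in complex V. Atp5b, the gene with the most counts of the input among members, was at 1369 ± 356 against 1002 CPM, and its 3 libraries below the input were ZT4 replicate 2 and ZT8 replicates 2 and 3.

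**Figure D5:**
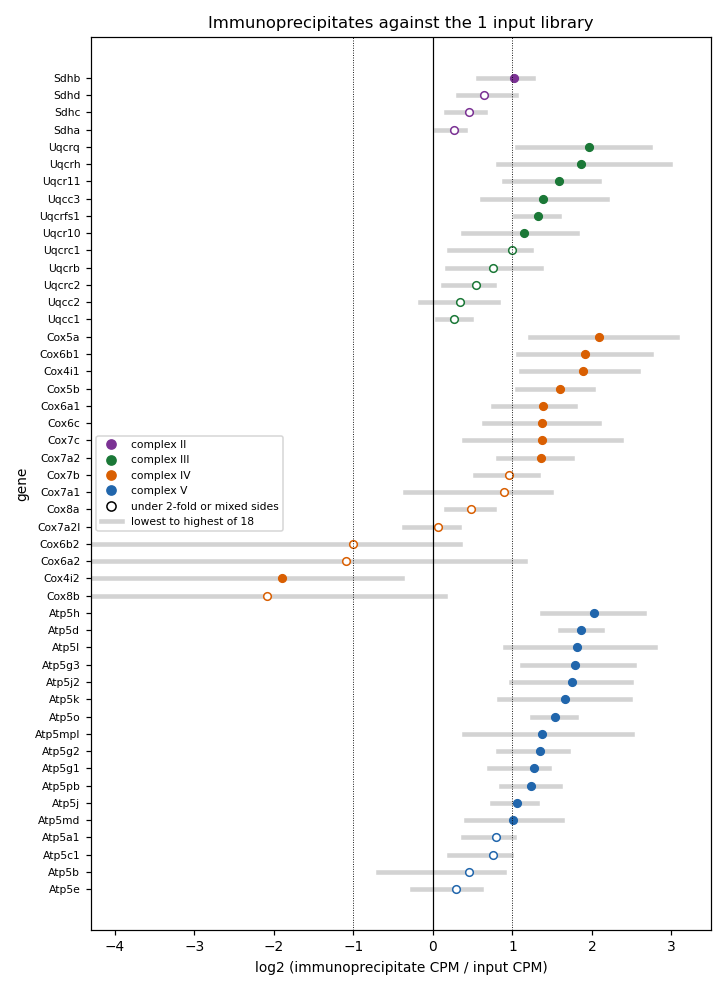
Log2 ratio of the mean of 18 immunoprecipitates to the input library for the 48 members with more than 3 input counts, coloured by complex, with grey bars from the lowest to the highest library and filled points where the rule of 2-fold and one side was met. Bars of members that were at 0 in a library run to the left edge; all members of complexes II, III and V lie to the right of 0.

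The paralogs of complex IV differed widely in level. The widely expressed isoforms Cox4i1, Cox6a1, Cox6b1, Cox7a2, Cox7b and Cox8a were at 226.9 to 1628 CPM in the immunoprecipitates, with ratios to the input of 1.39-fold for Cox8a to 3.77-fold for Cox6b1. Cox4i2, the isoform of lung and of low oxygen, was at 0.349 ± 0.261 CPM against 1.3 in the input and was the only depleted member (log2 ratio −1.90). The heart and muscle isoforms Cox6a2 and Cox8b were at 0.381 ± 0.468 and 0.473 ± 0.647 CPM, against 0.812 and 2.00 in the input. Cox7a1, the third of the muscle isoforms, was at 5.32 ± 1.96 CPM against 2.87 in the input, above it in 15 of 18 libraries. Cox7a1 was at 4.09, 4.30 and 2.80 CPM at ZT0, at 7.84, 8.01 and 7.32 at ZT8, and at 2.24, 2.67 and 5.59 at ZT16, and its ZT8 animals were the highest of these without overlap. It rose by 1.06 ± 0.35 to ZT8 (edgeR adjusted p = 0.0421) and fell by 1.14 ± 0.36 to ZT16 (edgeR adjusted p = 0.0323). These calls held in 11 and 15 of 21 fits that left out libraries, and with the length trend removed the differences were 0.56 and −0.71 (edgeR adjusted p = 0.188 and 0.095). Markers of skeletal muscle summed to 0.995 to 156.7 CPM in the immunoprecipitates, with 21 ± 12.1 at ZT8 and 18.7 ± 13.6 at ZT0, and their part in this was not tested. The testis isoform Cox6b2 was at 0.434 ± 0.327 CPM, Cox7b2 had counts in 4 of 18 immunoprecipitates, and Cox8c had none in any library, which allows up to 3 counts in each. Cox6c2, annotated as a pseudogene, had counts in 7.

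Other genes of the pathway were counted in lists. Over all genes tested, for comparison, 8.95% rose and 9.02% fell from ZT0 to ZT8, and 9.11% rose and 7.80% fell from ZT8 to ZT16. Of 41 tested subunits of complex I, the entry point for NADH, 23 rose and 3 fell from ZT0 to ZT8, and 3 rose and 20 fell from ZT8 to ZT16. The lowest cosine p-values in this list were those of Ndufb2 and Ndufa5. Ndufa5 rose by 1.23 ± 0.29 on the log2 scale to ZT8 (edgeR adjusted p = 0.009), and Ndufb2 fell by 0.86 ± 0.15 (edgeR adjusted p = 0.00519). Of 16 tested genes of the tricarboxylic acid cycle, 2 rose and 7 fell to ZT8. Suclg1, a subunit of succinyl-CoA ligase, fell by 2.07 ± 0.43 (edgeR adjusted p = 0.00678), and Cs, citrate synthase, by 0.34 ± 0.09 (edgeR adjusted p = 0.0167). Of 31 assembly and insertion factors 6 rose and 5 fell, among them Coa5, which rose by 0.57 ± 0.15, and Atpaf1, which brings the F1 head together and fell by 1.25 ± 0.23 (edgeR adjusted p = 0.0166 and 0.00519).

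Of 16 tested genes for carriers, their synthesis and the inhibitor of complex V, a list that held Cyc1 of complex III, 3 rose and 5 fell to ZT8. Etfb, a subunit of the electron transfer flavoprotein, rose by 0.82 ± 0.20, and Coq7, an enzyme of ubiquinone synthesis, by 0.77 ± 0.19 (edgeR adjusted p = 0.0109 and 0.0103). Of 13 mitochondrially encoded protein genes, 0 rose and 6 fell to ZT8, and 5 rose and 0 fell to ZT16. ND4 and ND2, both subunits of complex I, fell to ZT8 by 1.33 ± 0.25 and 1.48 ± 0.28 (edgeR adjusted p = 0.00523 for each), and their levels in the immunoprecipitates, at 281 and 186 CPM, stood against 4877 and 3141 CPM in the input. Since the tag is on cytoplasmic ribosomes, differences in these 13 genes cannot be read as changes in ribosome-bound mRNA. The source of their reads was not tested. Of 9 regulators of the pathway 1 rose and 1 fell to ZT8, close to the shares over all genes. Ppargc1a, a coactivator of mitochondrial genes, differed by 0.32 ± 0.15 from ZT0 to ZT8 (edgeR adjusted p = 0.136) and fell by 0.44 ± 0.15 to ZT16 (edgeR adjusted p = 0.047). Yy1 differed by −0.39 ± 0.22 and 0.56 ± 0.22 and passed the test in neither.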

How the data were processed

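Ribosome-bound mRNA was sequenced in 18 immunoprecipitates and 1 pooled input, as stranded poly-A libraries from 100 ng of RNA. The authors aligned reads to mm10 with STAR 2.7.5 and deposited RSEM expected counts per gene, with no normalization. Between 1.90% and 3.69% of a library's values were not whole, and they were rounded here. RSEM divides reads between near-identical copies by a model, so genes with pseudogene copies are less certain.

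Genes were kept with filterByExpr of edgeR 4.0.16 (R 4.3.3) and scaled by TMM. edgeR's quasi-likelihood test was fitted across all 6 time points and 15572 genes, with Benjamini-Hochberg adjustment at 0.05 over all of them, for 3 contrasts, any difference among time points and a 24-h cosine. JTK_Cycle used periods of 20, 24 and 28 h with an exact null distribution. The scripts were tested on simulated counts. Of 100 genes given a log2 difference of 1 between ZT8 and ZT0, 60% were recovered among 15572, and 6% at 0.5. The cosine test recovered 65% of 100 genes given a cosine with a log2 amplitude of 0.5 and 89% at 1, but 0% of those changed at ZT8 alone. Few genes were changed in these simulations, whereas 18.0% of genes tested were called from ZT0 to ZT8 in the data. The adjustment was therefore stricter in the simulations, and these shares do not estimate recovery in the data. Depth and 3 animals per time limit what small differences can be called. Transcript lengths, medians over a gene's transcripts, came from GENCODE M21, and coordinates and promoters from RefSeq GRCm38.p6, matched by symbol. The annotation named by the study and the symbols of the table may differ.

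Members and gene lists were chosen with earlier results of these data known. The genes named are, for each complex, those with the lowest cosine p and the highest and lowest ratio to the input, the tissue isoforms, the 5 with the lowest p in each of ZT8 minus ZT0 and ZT16 minus ZT8, and neighbours of these by role, chosen after their values were seen. Other lists name the 2 genes with the lowest cosine p. The alternatives tried were other scalings, filters, DESeq2 1.42.0, 2 time points alone, a replicate block, an oligodendrocyte score, a length correction and leaving out libraries. p-values measure the spread between animals that were processed on the same day.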

Additional observations from a re-analysis of the deposited data

How the results depend on the processing

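Of 34 calls from ZT0 to ZT8 or from ZT8 to ZT16 of members named by rule, 19 were lost with 2 time points alone, 8 with the length trend removed, 6 with the block as well, 2 with upper-quartile scaling, 2 with the replicate block (Cox7a1 to ZT8, edgeR adjusted p = 0.0541, and Sdhc to ZT16, 0.0582), 1 each with the other scalings, filters and covariate, and 0 with DESeq2. None changed direction under these. With other scalings the counts of called members, in the 5 edgeR tests, stayed within 1.5 times. A filter of 1 count in total gave 24 members by the cosine, 30 among any time points and 21 from ZT8 to ZT20, DESeq2 gave 21, 22 and 9, and a filter of 10 counts gave 2 from ZT8 to ZT20. Over all genes these settings called 2340, 2767 and 1642, then 2247, 2493 and 1114, then 154. The oligodendrocyte score as a covariate gave 0 members by the cosine and 18 among any time points, beside 4 and 1086 of all genes. ZT8 and ZT16 fitted alone gave 0 members and 1 of all genes, and the cause was not tested. JTK_Cycle gave 20 with adjustment within the gene alone and 1 with equal cosines ordered by rounding. Library totals gave 2 members depleted against the input. With the length trend removed, 3 members were called from ZT8 to ZT20, and the medians of complexes III, IV and V became 0.13, 0.16 and −0.069 from ZT0 to ZT8, −0.003, −0.23 and 0.013 from ZT8 to ZT16, and −0.006, −0.15 and 0.05 from ZT8 to ZT20, so that in complex V the sign turned in all 3.

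The replicate numbers did not pair the animals: deviations of same-numbered libraries correlated at −0.151 to 0.175, with a median of −0.0039. With a replicate block 9 members were called by the cosine, 12 among any time points, 27 from ZT0 to ZT8, 27 from ZT8 to ZT16 and 0 from ZT8 to ZT20. With the block and the length trend removed together, chosen after seeing the data, these were 10, 16, 23, 24 and 5.

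Leaving out libraries or replicate numbers gave 0 to 29 members by the cosine, 0 to 27 among any time points, 0 to 31 from ZT0 to ZT8, 0 to 35 from ZT8 to ZT16, 0 to 22 from ZT8 to ZT20, 0 to 8 by JTK_Cycle, and 1 to 2 depleted against the input. Calls over all genes moved with them: 0 to 2746 by the cosine, 0 to 2473 among any time points and 0 to 740 by JTK_Cycle. For the 3 contrasts in the same order they were 0 to 4087, 0 to 3930 and 0 to 2352. Leaving out single libraries moved the median of complex II between −0.028 and 0.08 from ZT0 to ZT8, between −0.068 and 0.05 from ZT8 to ZT16 and between −0.031 and 0.087 from ZT8 to ZT20, and that of complex III between −0.751 and −0.286 from ZT8 to ZT16. Depth limits the rare isoforms, at or under 3 counts in many libraries.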
